A study of Mus musculus with 12 samples.

Results

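The 9 genes described here are the glucocorticoid receptor gene Nr3c1 and 8 genes that dexamethasone is known to induce, Fkbp5, Tsc22d3, Zbtb16, Sgk1, Dusp1, Errfi1, Mt1 and Mt2, chosen by name for that role from 21627 protein-coding mouse genes. Each was followed over its span on GRCm38 and 20 kb on either side, in peak lists of H3K27ac, the acetylated form of histone H3 lysine 27 that lies at active promoters and enhancers. The lists came from 6 ChIP-seq libraries of mouse subcutaneous adipocyte progenitors, 3 from Azin2-/- cells (replicates 1, 2 and 8) and 3 from wild-type cells (replicates 1, 2 and 2b). Azin2 encodes antizyme inhibitor 2, which acts in the control of polyamine synthesis, and the comparison asks where acetylated chromatin differs in its absence. Both genotypes had the same culture: 1 week of growth, then dexamethasone (1 µM), rosiglitazone (1 µM), IBMX (0.5 mM) and insulin (5 µg/ml) for 2 days, then insulin as the only one of these agents for 5 days. All libraries therefore come from cells that had met dexamethasone and had been without it for 5 days, and no library without dexamethasone was analysed here. The nature of the Azin2 allele, the sex of the mice, and whether each library had its own animal as source are not stated in the labels, so every p-value below measures only the spread between these libraries, which may be technical.

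The glucocorticoid receptor waits in the cytoplasm in a complex with heat shock proteins and immunophilins, and moves to the nucleus when it binds a steroid such as dexamethasone. There it binds DNA as a dimer at glucocorticoid response elements (GREs), inverted repeats of the sequence TGTTCT with a spacer of 3 bases, and recruits acetyltransferases that acetylate histones, H3K27 among them. In fat cell progenitors glucocorticoid is a standard component of the adipogenic mixture and helps to start differentiation.

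The promoter sequences of 5 genes are given first, 3 of start sites with a main peak within 1 kb in all libraries (Sgk1, Dusp1 and Errfi1) and 2 of start sites with one in 1 or 2 libraries (Mt1 and Mt2). They are RefSeq sequences on GRCm38.p6 from 250 bases before to 50 bases after a start site, written 5′ to 3′ along the gene. The Sgk1 window (chr10:21993640-21993939, + strand) is shown for its GRE, in capitals. The Dusp1 window (chr17:26508423-26508722, - strand) and the Errfi1 window (chr4:150854820-150855119, + strand) are shown for TGACGTCA in capitals, the palindrome of the cAMP response element (CRE). The Mt2 window (chr8:94172368-94172667, + strand) and the Mt1 window (chr8:94178839-94179138, + strand) are shown for TGCNCNC or its reverse complement, in capitals. This is a loose form of the core of the metal response element (MRE), TGCRCNC, in which R is A or G.
Sgk1: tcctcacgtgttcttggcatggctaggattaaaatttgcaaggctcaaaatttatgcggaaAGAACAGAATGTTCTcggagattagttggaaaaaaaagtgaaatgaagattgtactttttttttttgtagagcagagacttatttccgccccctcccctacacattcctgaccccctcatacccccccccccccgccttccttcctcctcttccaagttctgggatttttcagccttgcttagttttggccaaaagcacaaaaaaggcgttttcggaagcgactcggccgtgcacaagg
Dusp1: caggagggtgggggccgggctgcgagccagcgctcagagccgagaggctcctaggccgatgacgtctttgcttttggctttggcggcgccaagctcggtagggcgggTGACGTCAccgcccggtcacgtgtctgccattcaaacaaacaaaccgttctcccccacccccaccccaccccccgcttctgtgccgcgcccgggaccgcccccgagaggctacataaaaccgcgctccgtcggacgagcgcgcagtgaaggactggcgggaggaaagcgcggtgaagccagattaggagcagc
Errfi1: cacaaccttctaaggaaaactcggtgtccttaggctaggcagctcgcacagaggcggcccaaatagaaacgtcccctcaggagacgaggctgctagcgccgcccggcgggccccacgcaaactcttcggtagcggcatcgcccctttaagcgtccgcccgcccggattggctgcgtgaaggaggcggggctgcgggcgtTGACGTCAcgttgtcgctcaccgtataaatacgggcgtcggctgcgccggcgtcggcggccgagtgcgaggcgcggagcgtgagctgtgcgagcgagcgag
Mt2: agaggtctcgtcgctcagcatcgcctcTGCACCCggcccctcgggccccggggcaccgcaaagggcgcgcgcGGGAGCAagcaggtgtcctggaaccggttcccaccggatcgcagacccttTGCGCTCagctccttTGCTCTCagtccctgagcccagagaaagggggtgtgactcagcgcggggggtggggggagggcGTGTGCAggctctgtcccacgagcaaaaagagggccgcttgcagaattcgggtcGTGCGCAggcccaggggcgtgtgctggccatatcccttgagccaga
Mt1: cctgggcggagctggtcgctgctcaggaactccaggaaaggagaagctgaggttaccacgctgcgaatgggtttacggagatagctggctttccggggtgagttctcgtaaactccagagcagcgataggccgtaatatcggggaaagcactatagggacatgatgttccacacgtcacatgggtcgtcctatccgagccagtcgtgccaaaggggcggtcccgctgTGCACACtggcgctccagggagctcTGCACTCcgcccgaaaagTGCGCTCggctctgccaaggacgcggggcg

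Among these genes the full GRE palindrome, searched as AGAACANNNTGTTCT on both strands, was found in the window of 1 Sgk1 start site and in no other of the 15 windows of 7 genes. It lay at chr10:21993701-21993715, from -189 to -175 with the start site counted as 0. In all RefSeq windows it was rare, with 3 of 32851 (0.00913%). Its single arm TGTTCT, which the palindrome holds in both directions, was in 4 of the 15 windows and in 6233 of all windows, including 1 match at -185 to -180 of the outer Tsc22d3 start. The CRE palindrome was in 1.79% of all windows, and here in those of Dusp1 (-143 to -136) and Errfi1 (-51 to -44). The MRE core was common, in 51.0% of all windows and 8 of the 15. The Mt2 window held 6 copies, a number that 74 windows (0.225%) reached, and the Mt1 window held 3, which 2332 windows (7.1%) reached. Each match is a run of letters, not a measured binding site.

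Acetylation was measured as covered length, the number of bases under the 30000 peaks of smallest p in each library, scaled to equal total cover. Total cover before scaling was lowest in wild-type replicate 1 (16861768 bp) and highest in Azin2-/- replicate 1 (28925503 bp), so scaling raised the first and lowered the second. Covered length follows the width and number of peaks, not their height. The deposited lists held 741843 to 1216000 peaks on chromosomes 1 to 19 and X, and those down to rank 30000 had a q of 0.0299 to 0.185 or better, above 0.05 at rank 30000 in 5 of the 6 libraries. Read totals are not given. Deposited fold and p together give, under an assumption on how the fold was formed, the number of fragments at each summit and the local background, whose lowest value at these genes was 0.125 fragments for wild-type replicate 1 and 0.957 for Azin2-/- replicate 8, the extremes of the 6 libraries. A main peak within 1 kb of a start site was present for 1 to 4 of 7 adipocyte marker genes per Azin2-/- library and 1 to 2 per wild-type library, in all libraries at Cebpa and in none at Adipoq, Plin1 and Cidec. Of 6 progenitor markers 1 to 4 and 1 to 2 had one (none at Dpp4 and Pi16). Of 3 macrophage markers 0 had one, of 3 endothelial markers 0 to 1, and of 3 epithelial markers 1 to 3 and 1, with Epcam in all libraries. Of 4 muscle markers 1 to 2 and 0 to 2 had one. Scaled cover summed over 5 muscle genes was 10942 to 12505 bp in Azin2-/- libraries, and 1291, 12820 and 8387 bp in wild-type replicates 1, 2 and 2b. By cover over the locus, 3 of 7 tested progenitor markers had an unadjusted p under 0.05 in limma, in both directions and none past adjustment: Dcn (log2 difference, Azin2-/- minus wild-type, -2.07), Pi16 (-1.33) and Dlk1 (1.82). Dcn had no cover in any Azin2-/- library and 1779, 658 and 2971 bp in wild-type replicates 1, 2 and 2b. Of 4 tested muscle markers 2 had such a p, Myod1 (1.48) and Pax7 (1.31). Both had 0 bp in wild-type replicate 1, and Myog was negative (-0.35). Over all loci 6.50% had an unadjusted p under 0.05 in limma, and 4.14% were lower and 7.19% higher in Azin2-/- without overlap. The part of cell makeup in the values below was not tested, and in a bulk library fewer acetylating cells and less acetylation per cell cannot be told apart.

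At 6 of the 9 genes 1 merged region of acetylated chromatin held a peak of every library. At Zbtb16 the peaks in it had no base common to all libraries. Peaks of the 6 libraries merged into 68 regions at the 9 genes, of which 6 were held by all libraries, 1 each at Nr3c1, Fkbp5, Zbtb16, Sgk1, Dusp1 and Errfi1. That is 8.82% of these regions, where 3.23% of all 128486 regions were held by all libraries. Among all protein-coding genes, whose spans differ widely in length, 30.3% had such a region. It held 74.1 to 100% of the cover at Nr3c1 in each library and 66.4 to 100% at Dusp1, but as little as 26.0% at Zbtb16 and 34.3% at Sgk1, where most other regions lay in single libraries. A further 55 regions (80.9%, against 85.8% of all) were peaks of a single library, 17 of them of wild-type replicate 1 and 6 to 10 of each other library. The RefSeq promoter table used here gave start sites for 7 of the genes. It had none for Nr3c1 and Zbtb16, so their shared regions could not be placed against a start. A main peak lay within 1 kb of a start site in every library at 4 of these 7 (Fkbp5, Sgk1, Dusp1 and Errfi1), against 18.9% of 17273 genes, and at 5 of their 15 start sites, against 18.2% of 21044.

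**Figure D1:**
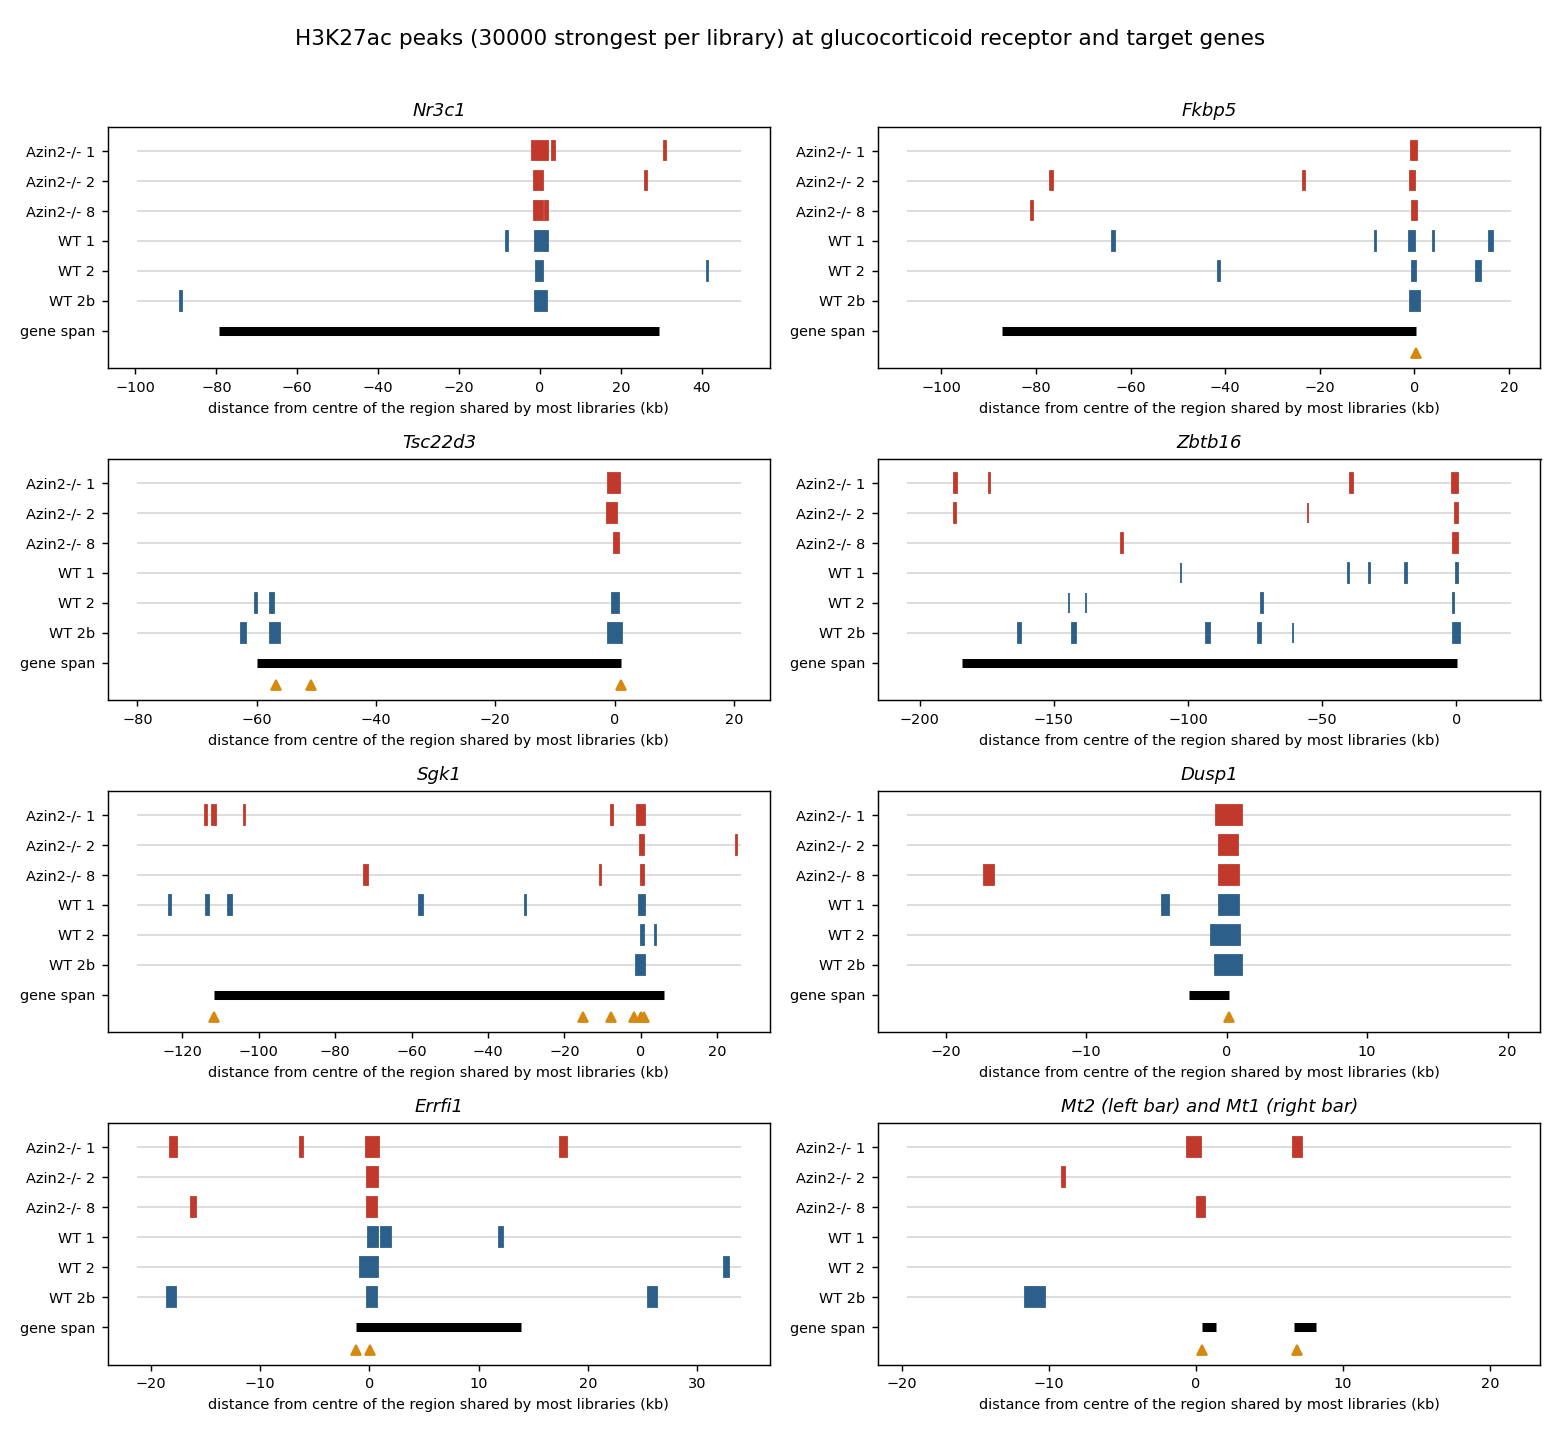
H3K27ac main peaks of each library (red, Azin2-/-; blue, wild-type) along each gene and 20 kb on either side, by distance in kb from the centre of the region that most libraries share; the black bar is the gene span and the triangles are annotated start sites. The panels of 6 genes hold a column of peaks in all 6 libraries, though at Zbtb16 these peaks have no base common to all. At Tsc22d3 the column lacks wild-type replicate 1, and at Mt1 and Mt2 no peak is shared by more than 2 libraries.

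The receptor gene itself carried strong acetylation that did not differ detectably between the genotypes. Nr3c1 (chr18:39410545-39519421) had 4310, 2609 and 3376 bp of scaled cover in Azin2-/- replicates 1, 2 and 8, and 4654, 2445 and 2775 bp in wild-type replicates 1, 2 and 2b. The genotypes overlapped, replicate 1 being the highest in each. Their means were 3432 ± 852 bp and 3292 ± 1192 bp (SD, n = 3 each), a log2 difference (Azin2-/- minus wild-type, here and below) of 0.07 ± 0.37 (SE; limma, 95% interval -0.71 to 0.86; adjusted p = 0.983). Most of the cover was in 1 region inside the gene, chr18:39488009-39491980, with its centre 29427 bp from the higher end of the span. Its unscaled length was 3972, 2156 and 3068 bp in the Azin2-/- libraries and 2806, 1969 and 2902 bp in the wild-type ones, again overlapping, with a log2 difference of 0.09 (interval -0.33 to 0.51; limma adjusted p = 0.841). This was among the strongest acetylated places of some libraries: its top peak ranked 112th in wild-type replicate 1, 144th in replicate 2b and 3888th in Azin2-/- replicate 2, the lowest rank of the 6. The summit held 10 to 64 fragments.

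Fkbp5 encodes the immunophilin FKBP51, which binds the receptor complex, lowers its affinity for hormone and is itself induced by it, so that it closes a feedback loop. Its locus (chr17:28398753-28486149) had 1037, 2269 and 1566 bp in Azin2-/- and 4515, 2420 and 1666 bp in wild-type libraries. The lowest wild-type library lay below the highest Azin2-/- library, and wild-type replicate 1 stood above all others. The means were 1624 ± 618 and 2867 ± 1476 bp, with a log2 difference of -0.62 ± 0.44 (limma, 95% interval -1.55 to 0.32; adjusted p = 0.815). Without wild-type replicate 1, which had 4 regions at Fkbp5 that no other library shared, the difference was -0.29. The region over the start site (start 28486149; chr17:28484724-28486941) was in all libraries with 842 to 2005 bp and a log2 difference of -0.34 (interval -1.16 to 0.48). Its summit was lower than at Nr3c1 within each of the 6 libraries or equal to it, with 4 to 19 fragments.

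Tsc22d3 and Zbtb16 encode transcriptional regulators. Tsc22d3 makes GILZ, a leucine zipper protein that mediates part of the anti-inflammatory action of glucocorticoid, and Zbtb16 makes PLZF, a zinc finger repressor. The Tsc22d3 locus (chrX:140539528-140600522) had 1654, 1680 and 1021 bp in Azin2-/- libraries and 0, 2133 and 3850 bp in wild-type ones. Wild-type libraries thus lay on both sides of all Azin2-/- libraries. The log2 difference was 0.11 ± 0.66 (limma, interval -1.30 to 1.51; adjusted p = 0.988), and -0.82 without wild-type replicate 1, the library with no main peak here.

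Tsc22d3 has several start sites, and its peaks fell at 2 of them. At the outer start (140600522) the region chrX:140598278-140600674 had 2057, 1638 and 928 bp in Azin2-/- and 0, 1221 and 2263 bp in wild-type libraries, with a log2 difference of 0.93 ± 0.73 (interval -0.63 to 2.48; limma adjusted p = 0.603). Wild-type replicate 1 was not empty in the full list: a peak of 2 fragments lay there at rank 57708. At the inner start (140542668), which serves a shorter transcript, main peaks were in wild-type replicate 2 (527 bp) and 2b (1650 bp) and in no Azin2-/- library. The full lists held weaker peaks at the inner start in every other library, with 2 to 5 fragments. The peak of Azin2-/- replicate 8 had 5, and those of wild-type replicates 2 and 2b had 4 each, counts not scaled for depth. Local background at these peaks was 0.957 fragments in Azin2-/- replicate 8 and 0.41 and 0.288 in wild-type replicates 2 and 2b. The deposited fold was 3.07, 3.55 and 3.88 in the same order. The log2 difference in cover at the inner start was -1.63 (limma adjusted p = 0.603).

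Zbtb16 (chr9:48651797-48836225) is the longest of these genes and had the most regions, 17, of which 14 were in a single library. Its scaled cover was 3441, 1817 and 2775 bp in Azin2-/- and 2770, 1767 and 6610 bp in wild-type libraries. Apart from wild-type replicate 2b, the wild-type values fell within or just below the Azin2-/- range. The log2 difference was -0.27 ± 0.44 (limma, interval -1.20 to 0.66; adjusted p = 0.939), and 0.19 without wild-type replicate 2b. The region in all libraries lay over the higher end of the gene (chr9:48834619-48837622), 433 to 2824 bp long per library, with 3 to 18 fragments at the summit. Main peaks of Azin2-/- replicate 2 (48835642-48836586) and wild-type replicate 1 (48835912-48836679) did not overlap that of wild-type replicate 2 (48834954-48835386). Those of wild-type replicates 1 and 2 ranked 24681st and 29086th, with 3 and 4 fragments. A region inside the gene (chr9:48762080-48763963) was in wild-type replicates 2 (782 bp) and 2b (1178 bp) alone, with the smallest p of all 16 tested regions at these genes (unadjusted p = 0.110, limma). Its log2 difference was -1.64. In the other direction, a region 1848 bp outside the lower end (chr9:48648954-48649949) was in Azin2-/- replicates 1 (871 bp) and 2 (597 bp) alone. There the log2 difference was 1.40 (unadjusted p = 0.164, limma).

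Sgk1, Dusp1 and Errfi1 act on kinase signalling. Sgk1 encodes a kinase close to AKT that promotes sodium uptake and cell survival, Dusp1 a phosphatase that switches off MAP kinases, and Errfi1 the protein MIG6, which inhibits the EGF receptor. The Sgk1 locus (chr10:21882184-21999903) had 3679, 1432 and 2571 bp in Azin2-/- and 6633, 1287 and 1871 bp in wild-type libraries. Wild-type libraries held both the highest and the lowest value. Unscaled, wild-type replicate 1 had 4810 bp, close to the 4577 bp of Azin2-/- replicate 1. The log2 difference was -0.10 ± 0.50 (limma, interval -1.15 to 0.96; adjusted p = 0.984), and 0.51 without wild-type replicate 1.

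Of 6 annotated Sgk1 start sites, those at 21993890 and 21994666 had a main peak within 1 kb in every library, and they share the region chr10:21992764-21995019. It had 2099, 909 and 880 bp in Azin2-/- and 1650, 862 and 2252 bp in wild-type libraries (log2 difference -0.40, interval -1.22 to 0.42; limma adjusted p = 0.603). This is the region of the printed GRE. The main peaks of Azin2-/- replicate 1 and of wild-type replicates 1 and 2b reached over the GRE, and the shorter peaks of the other 3 libraries began downstream of it. The outermost start site (21882184), which gives a longer transcript, had a main peak in Azin2-/- replicate 1 alone.

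Dusp1 was strongly acetylated in every library. Its locus (chr17:26505591-26508472) had 1461, 1381 and 2345 bp in Azin2-/- and 2605, 2161 and 1577 bp in wild-type libraries. The genotypes overlapped, and the log2 difference was -0.24 ± 0.42 (limma, interval -1.12 to 0.65; adjusted p = 0.947). The region over the start site (26508472; chr17:26507183-26509354) had 1817, 1346 and 1414 bp in Azin2-/- and 1405, 2039 and 1898 bp in wild-type libraries. Unscaled, the genotypes overlapped. Scaled, as tested, the region had 1461, 1381 and 1556 bp in Azin2-/- and 1938, 2161 and 1577 bp in wild-type libraries, without overlap by a narrow margin. This was 1 of the 16 tested regions at these genes and the only one without overlap, and among all tested regions 2.62% were lower and 5.22% higher in Azin2-/- without overlap. The means were 1466 ± 87.5 and 1892 ± 295 bp, with a log2 difference of -0.32 ± 0.25 (interval -0.85 to 0.21; limma adjusted p = 0.603). Its peak ranked between 271st and 1252nd in each list, with 10 to 51 fragments and the authors' fold of 4.97 to 22.7 over background. The CRE printed above lay under main peaks of all 6 libraries.

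Errfi1 (chr4:150853796-150868889) had 2195, 1081 and 1484 bp in Azin2-/- and 3086, 2169 and 2151 bp in wild-type libraries. Of the 9 genes it came closest to a gap between the genotypes, with Azin2-/- replicate 1 just above the lower wild-type values. The means were 1587 ± 564 and 2468 ± 535 bp, and the log2 difference was -0.53 ± 0.41 (limma, interval -1.40 to 0.35; adjusted p = 0.834). The region over the start at 150855070 (chr4:150854128-150855846) was in all libraries, with 1150, 1054 and 922 bp in Azin2-/- and 906, 1655 and 986 bp in wild-type ones (log2 difference -0.24, interval -1.14 to 0.66; -0.01 without wild-type replicate 2). Here too the CRE lay under main peaks of all 6 libraries, and the summit held 11 to 38 fragments.

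Mt1 and Mt2 encode metallothioneins, small cysteine-rich proteins that bind zinc and copper and are induced both by metals, through the factor MTF-1, and by glucocorticoid. The genes are neighbours (Mt2 chr8:94172618-94173567, Mt1 chr8:94178883-94180327), and since their windows overlap and share all 4 regions, they count as 1 measurement. Scaled cover was 1320, 221 and 613 bp in Azin2-/- libraries and 0, 0 and 1156 bp in wild-type ones. Every Azin2-/- library had some, whereas 2 wild-type libraries had none and the remaining one, replicate 2b, lay near the top. The log2 difference was 0.61 ± 0.77 (limma, interval -1.03 to 2.24; adjusted p = 0.917).

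The only metallothionein region in more than 1 library was at the Mt2 start (chr8:94171558-94172840), with 988 bp in Azin2-/- replicate 1 and 557 bp in replicate 8, and no main peak in the 4 other libraries (log2 difference 1.45 ± 0.95, interval -0.60 to 3.49; limma adjusted p = 0.603). In the full lists all 6 libraries had a peak with its summit there, of 9, 2 and 6 fragments in Azin2-/- and 1, 3 and 3 in wild-type libraries, so that Azin2-/- replicate 2 lay within the wild-type range. These counts are not scaled for depth, and the local background at those peaks was 0.269, 0.445 and 1.07 fragments in Azin2-/- and 0.188, 0.44 and 0.44 in wild-type libraries. At the Mt1 start the main list had 1 peak, of Azin2-/- replicate 1 (654 bp, 6 fragments). The cover of wild-type replicate 2b came from a region upstream of both genes (chr8:94160570-94161961), not from their start sites. The same held for Azin2-/- replicate 2, whose only cover was an upstream region of 215 bp unscaled (chr8:94163077-94163291).

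**Figure D2:**
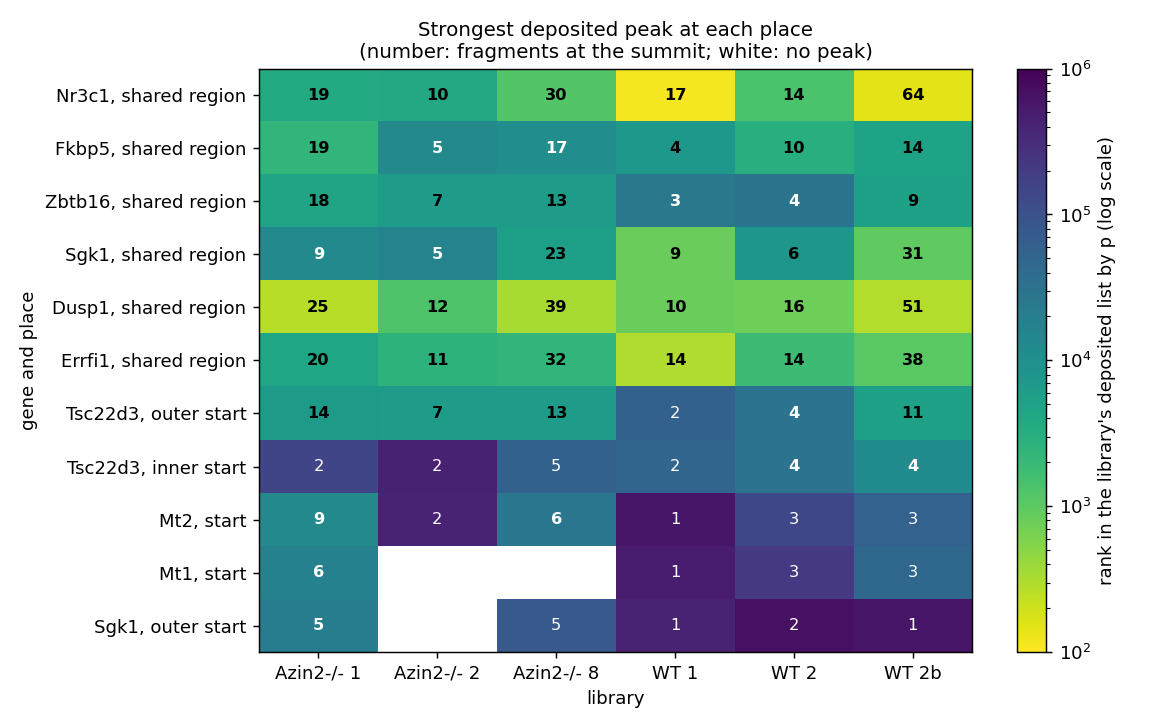
Strongest deposited peak of each library at 11 places in these genes, coloured by its rank in that library's own list (log scale, yellow strongest) and marked with the fragments at its summit, in bold where it is among the main peaks; white means no deposited peak. Dusp1 ranked between 271 and 1252 in every library, whereas Mt2, Mt1 and the outer Sgk1 start ranked 13075th at best; lists differ in length and depth, so a rank describes a peak within its column.

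Across the set, no gene and no region passed the test between the genotypes. Of the 9 loci, 0 had an adjusted p under 0.05 in limma in either direction, as for all 14774 loci tested (0%), of which 688 higher and 272 lower had an unadjusted p under 0.05, and none of the 9 did. Loci whose libraries did not overlap between the genotypes numbered 0 among the 9, against a background of 7.19% higher and 4.14% lower in Azin2-/-. With Mt1 and Mt2 counted once, the log2 difference was negative for 5 and positive for 3 of the 8 loci, with a median of -0.17, beside 0.10 over all loci, of which 43.3% were negative. Of 16 tested regions at the genes none was called, as among all 22205 (0%; 899 higher and 324 lower at an unadjusted p under 0.05). Regions in every Azin2-/- and no wild-type library (0.412% of all) or in every wild-type and no Azin2-/- library (0.0257%) numbered 0 at these genes. The narrowest of the 9 intervals, that of Nr3c1, ran from -0.71 to 0.86.

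**Figure D3:**
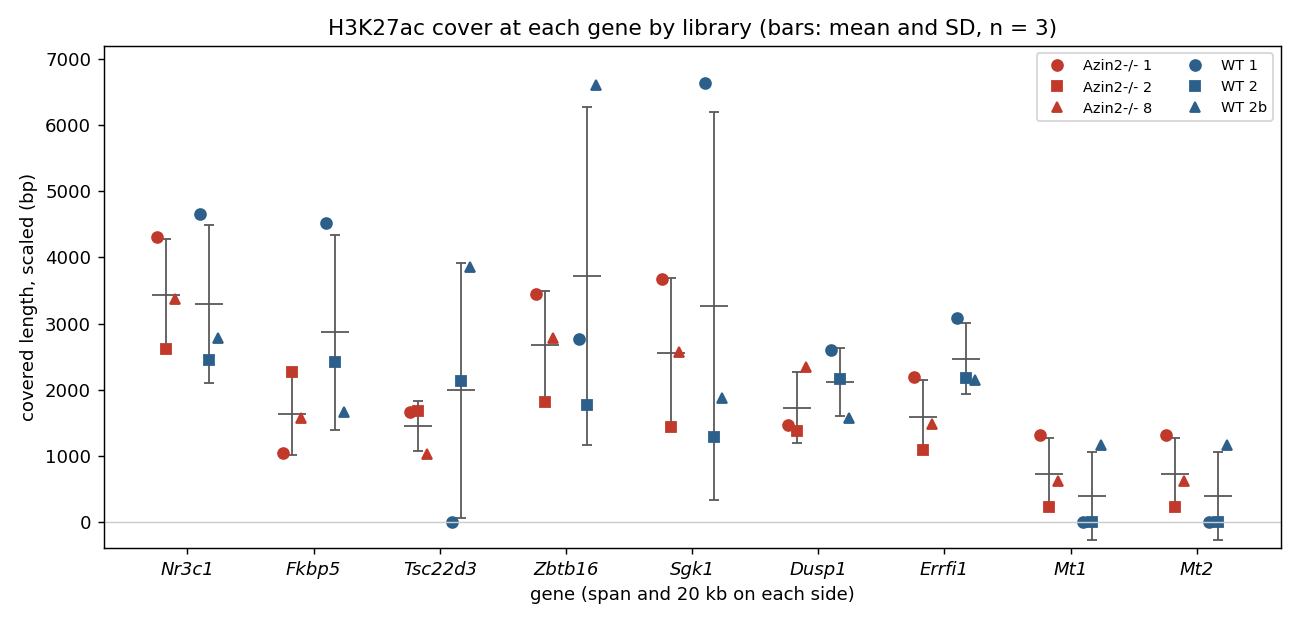
Scaled covered length (bp) of each gene and 20 kb on either side, by library (red, Azin2-/-; blue, wild-type; shapes mark replicates), with mean and SD of 3 libraries. The genotypes overlap at all 9 genes, and wild-type replicate 1 at Fkbp5 (4515 bp) and Sgk1 (6633 bp) and replicate 2b at Zbtb16 (6610 bp) stand above the rest. Before scaling, those at Fkbp5 and Zbtb16 were also the highest by far, but at Sgk1 wild-type replicate 1 (4810 bp) was close to Azin2-/- replicate 1 (4577 bp).

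**Figure D4:**
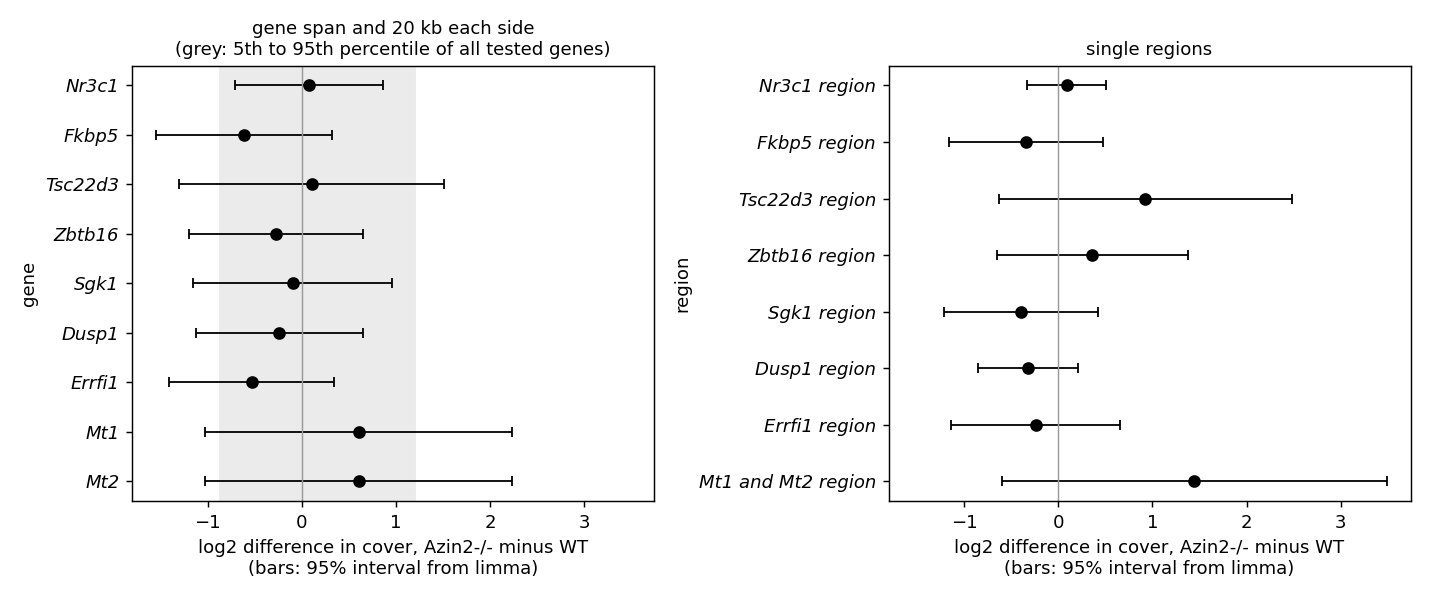
Log2 difference in cover (Azin2-/- minus wild-type) with the 95% limma interval, for the 9 loci at left and for the region of largest cover at each gene at right; the grey band holds the 5th to 95th percentile of all tested loci (-0.87 to 1.21). Every interval holds 0, and the point values of all 9 loci lie inside the band.

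Genes around the receptor were read the same way. Of 26 genes of the receptor machinery (heat shock proteins, cochaperones, coactivators, corepressors and the enzymes that activate or inactivate the hormone) 25 were tested, 0 were called, 8 had a positive difference and the median was -0.24, beside 56.7% positive and a median of 0.10 over all loci. A main peak lay within 1 kb of a start site in all 6 libraries at 9 of 18 with an annotated start (18.9% of all genes), among them the acetyltransferases Crebbp and Ep300, the corepressor Ncor1 and the cochaperones Fkbp4 and Stip1. No library had a main peak at the start of Hsd11b1, whose product regenerates active glucocorticoid in fat. The 2 genes of smallest p in each direction did not pass: Ncoa1 (log2 0.78) and Fkbp4 (0.56) were positive, Hsd11b1 (-1.11) and Dnaja1 (-0.77) negative.

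Among 38 other genes known to be induced by glucocorticoid, 32 were tested, 8 had a positive difference and the median was -0.45. None was called, and 7 had an unadjusted p under 0.05 (limma; 6.50% of all loci did), 4 negative and 3 positive. Cebpb, a transcription factor that acts early in adipogenesis, had 1511, 984 and 1309 bp in Azin2-/- and 5549, 4407 and 2092 bp in wild-type libraries. The genotypes did not overlap there, but the log2 difference of -1.28 ± 0.42 did not pass (limma adjusted p = 0.751). Nfil3, a circadian repressor, likewise had 701 to 1920 bp against 2262 to 5208 bp (log2 -1.23, limma adjusted p = 0.751). On the positive side were Fgd4 (1.42), also without overlap (2560 to 3226 against 0 to 2303 bp), and Arrdc2 (1.22), which overlapped, both with an adjusted p of 0.751 by limma. Over all loci 4.14% were lower and 7.19% higher in Azin2-/- without overlap. A start site had a main peak in all libraries at 17 of the 34 annotated.

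Of 12 genes that glucocorticoid represses, mostly cytokines and matrix genes, 6 were tested, 0 were called and 2 were positive, with a median of -0.16. Of the 8 with an annotated start, 0 had a main peak there in all libraries and 5 had one in no library, Il6, Cxcl1, Mmp13, Mmp3 and Csf2. Col1a1, a fibrillar collagen gene, had 588, 2303 and 454 bp in Azin2-/- and 6585, 3401 and 3747 bp in wild-type libraries (log2 -1.78 ± 0.47, limma adjusted p = 0.751), and Icam1, an adhesion molecule, had 2663 to 5935 bp against 896 to 1517 bp (1.32, adjusted p = 0.751). Both were without overlap, as were 4.14% of all loci on the lower and 7.19% on the higher side. Both had an unadjusted p under 0.05 in limma, as had 6.50% of all loci, and neither passed. Ccl2 (-0.93) and Nos2 (0.66) came next.

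Of 6 genes of metal handling 5 were tested, 0 were called and 3 were positive, with a median of 0.06. Mtf1, the metal-sensing factor that binds MREs, had a log2 difference of 0.49, Mt3, whose window shares peaks with that of Mt2, 0.83, and the zinc importers Slc39a14 and Slc39a10 -0.87 and -0.57. None passed.

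The loci whose scaled cover was most like that of Nr3c1, the gene of highest mean cover in the set, were Fcer1g (Pearson r of log2 cover 0.986 over 6 libraries), Spg20 (0.985) and Sec63 (0.98). With so few libraries 127 of 14772 loci reached an r over 0.9, and these values describe a likeness of pattern only.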

How the data were processed

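H3K27ac was profiled by ChIP-seq in 6 libraries, grouped by the genotype in the labels; 6 input libraries were not analysed here. Per the submitters' processing notes the deposited peak lists use the build mm10 (GRCm38); the sources used here do not give the aligner, peak caller, duplicate handling or control. For each peak the authors deposited a score (10 times the -log10 p, cut to a whole number), a fold ratio over local background, a -log10 p-value and a -log10 q-value. These are the authors' values and served to rank, filter and describe peaks within a list. Fragments at a summit were derived by assuming that 1 was added to summit and background before the fold was taken, and 63 of 63 peaks described gave a whole number within 0.001 on the log10 p scale.

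The 30000 peaks of smallest p per library on chromosomes 1 to 19 and X (main peaks) were used. Peaks sharing 1 bp or more across libraries were merged into regions. No library looked duplicated, since any pair shared 0 to 10 identical main peaks. Covered length was summed over each RefSeq gene span (GRCm38.p6) and 20 kb on either side, or over each region, scaled to equal total cover per library. After adding 500 bp (loci) or 200 bp (regions), log2 values with a mean cover of at least 500 or 200 bp were fitted over all loci or regions with limma 3.58.1 (eBayes with trend, R 4.3.3) and Benjamini-Hochberg adjustment at 0.05; differences are on this log2 scale, which understates changes of low cover. All 9 genes passed the minimum. The procedure was tested on simulated data with normal noise of the same spread at every locus. Real cover has empty loci and unequal spread, so the simulation does not measure error rates here. Tables were made with Python 3.11.15, pandas 2.3.3 and numpy 2.4.6. Start sites and promoter sequences were those of the RefSeq promoter table, which matched 7 of the 9 genes; the gene table gives spans without exons.

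The genes and lists were chosen with earlier results of these data known. Named were the 9 genes, their regions held by all libraries or of largest cover, and the 3 loci most like the member of highest cover. Of each list other than the cell type markers, the 2 tested genes of smallest p in each direction were named. Regions in 2 libraries or 1, cell type markers and genes given only by their start sites were named after their values were seen. Alternatives were list lengths of 15000 and 60000, q limits of 0.05 and 0.01, a pseudocount of 100 bp, no minimum, no scaling, windows of 5 and 50 kb, a mean of wild-type replicates 2 and 2b, the replicate block, and leaving out each library.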

Additional observations from a re-analysis of the deposited data

How the results depend on the processing

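No locus or named region of the 9 genes passed under any alternative (lowest limma adjusted p 0.706 for loci and 0.339 for regions). Fkbp5, Dusp1 and Errfi1 stayed negative under all 17 alternatives for loci, with log2 differences of -0.99 to -0.25, -0.70 to -0.10 and -0.72 to -0.28; Mt1 and Mt2 stayed positive under the 10 in which they reached the minimum (0.32 to 1.56). The sign of the others changed. Nr3c1 became -0.07 and -0.12 at a q of 0.05 and 0.01, -0.049 with wild-type replicates 2 and 2b averaged, -0.008 with 50 kb, and ran from -0.086 to 0.32 as each library was left out; its region became -0.26, -0.27 and -0.035 under the first 3 of these and ran from -0.081 to 0.34. Tsc22d3 became -0.40 with 60000 peaks and -0.083 with 50 kb, and ran from -0.82 to 0.73; it rose to 0.98 with 15000 peaks and 0.89 at both q limits. Its outer region ran from -0.12 to 1.54 as each library was left out and reached 1.89 with 15000 peaks. Zbtb16 became 0.41 with 15000 peaks and 0.24 and 0.64 at a q of 0.05 and 0.01, and ran from -0.64 to 0.19, its region from -0.12 to 0.85, with 1.82 at 15000 peaks. Sgk1 became 0.042 without scaling and 0.32 with 50 kb, and ran from -0.50 to 0.51. It was -0.88 with 15000 peaks, -0.65 at a q of 0.05 and -0.89 at 0.01. Its region ran from -0.74 to -0.16 as each library was left out and was -1.58 at a q of 0.01. The Errfi1 region ran from -0.48 to -0.01 as each library was left out and was -0.57 at a q of 0.01. The cause was not tested.

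Over all genes, limma called 12 loci higher and 1 lower at a q of 0.01; as each library was left out it called 0 to 1 higher, the 1 without wild-type replicate 2, and 0 lower. Regions called were 13 higher and 37 lower with 60000 peaks, 16 and 46 with no minimum, and 1 and 3 lower at a q of 0.05 and 0.01, and 0 in each direction as each library was left out. The count of regions at these genes in all libraries was 2 when at least 50% of the region had to be covered in each (Dusp1 and Errfi1), 3 at a q of 0.01 (Nr3c1, Dusp1 and Errfi1), and 6 to 7 with each library left out, the 7 without wild-type replicate 1.

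With the replicate block (replicates 1 and 2 of both genotypes, numbers 1 and 2 as a block) Nr3c1 was -0.011, its region -0.093, Zbtb16 0.15, Tsc22d3 0.90 and its outer region 1.75, and over all regions 12 were called higher and 27 lower. The labels do not say that a number marks a shared animal or day, so the numbers were not taken to pair the libraries. Deviations of same-numbered libraries correlated at -0.03 (replicate 1) and 0.11 (replicate 2). The value for replicate 2 was the highest between libraries of unlike genotype, and that pair shared the most identical main peaks (10). These values cannot tell whether an animal or day was shared. In the fit with the replicate block, and with 60000 peaks, no minimum or q limits for regions, limma took the spread from its trend with mean cover alone, so a region's own spread had no part in the calls. Depth limits the weak places: at both metallothionein starts and the inner Tsc22d3 start a main peak rests on 4 to 9 fragments. Some shared regions are as thin in single libraries, with 3 fragments at Zbtb16 and 4 at Fkbp5 in wild-type replicate 1. At Sgk1, Azin2-/- replicate 2 had 5.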
